A study of Mus musculus with 104 samples.

Results

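The striatum of BACHD mice at 12 months of age was compared with that of WT littermates by RNA sequencing, gene by gene. The comparison used the 8 striatal libraries of the BACHD cohort, 4 from BACHD mice and 4 from WT mice, out of 104 libraries in the series. They were chosen by the tissue, genotype and cohort given in the labels, and all 8 were kept. Each genotype had 2 females and 2 males on the FvB background, and each library came from a separate mouse that had been perfused with saline before dissection. BACHD mice carry a bacterial artificial chromosome with the full-length human mutant huntingtin gene under its own regulatory sequences, in addition to both mouse Htt alleles. The mutant first exon is flanked by loxP sites, and its glutamine stretch is encoded by a mixed CAA-CAG tract. BAC-CAG mice, the other line of the series, carry a human huntingtin transgene with a CAG repeat that has no such interruption. The WT mice carry no transgene. Cortex of the same 8 mice, and striatum of 8 BAC-CAG mice and 8 WT mice from a separate FvB cohort, also at 12 months and with both sexes in each genotype, served for comparison. The copy number of the transgenes and their places in the mouse genome are not given in the labels.

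Huntington's disease is caused by an expanded CAG repeat in the huntingtin gene and hits the striatum hardest. Most striatal cells are projection neurons that release GABA. Those of the direct pathway carry the dopamine receptor Drd1 and the peptides substance P and dynorphin, and those of the indirect pathway carry Drd2, the adenosine receptor Adora2a and enkephalin. Loss of the transcripts that define these neurons is a well known feature of striatum in the disease and in its mouse models.

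Totals ran from 38.8 to 42.5 megacounts (M counts) per library (in the same unit, WT 41.3 ± 0.839 and BACHD 40.2 ± 1.57, SD, n = 4 each). Levels are given below as CPM, the count scaled to a common library size with TMM factors. Sex labels matched the sex-specific genes in all 8 libraries. No 2 libraries of a genotype agreed within counting noise. The leading number of the animal tag was shared by both BACHD females and by both BACHD males, differed among the 4 WT mice, and was never shared between genotypes. The labels do not say what that number stands for.

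One library stood apart. In WT replicate 4, a male, the 19 markers of cortical excitatory neurons had a mean log2(CPM + 1) of 5.25, against 3.77 to 4.17 in the other 7 libraries. Neurod2, a transcription factor of cortical excitatory neurons, was at 21.6 CPM in that library and between 0.927 and 3.51 CPM elsewhere. Its mean over 47 genes of striatal projection neurons was the lowest of the 8, at 8.28 against 8.41 to 8.63. The plot of both scores shows this library far to the right of the rest. For genes named below, both values are given where leaving it out changed a call between genotypes in striatum or turned a stated direction. In bulk tissue, fewer cells of a type and less RNA per cell cannot be told apart.

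**Figure D1:**
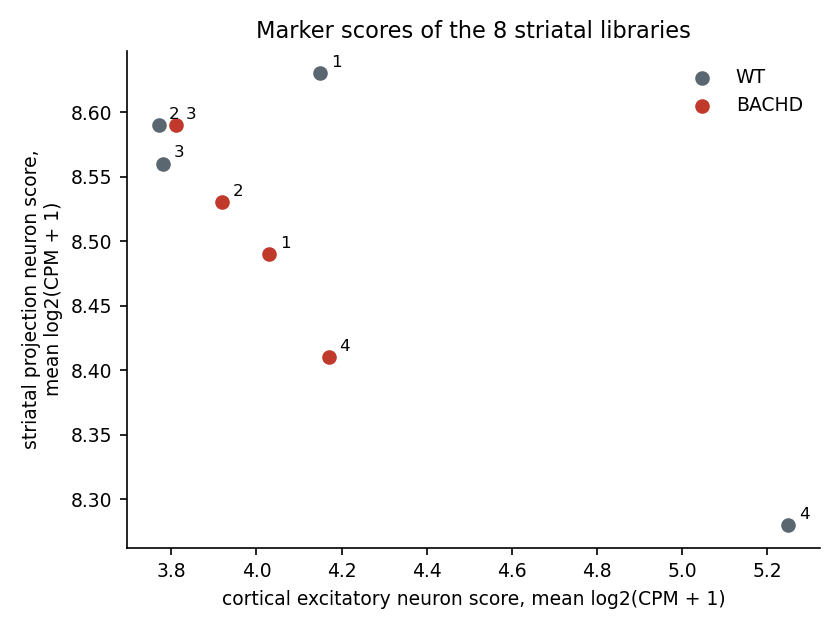
Mean log2(CPM + 1) of striatal projection neuron genes (vertical axis) against that of cortical excitatory neuron markers (horizontal axis), 1 point per striatal library with its replicate number. WT replicate 4 lies at 5.25 on the horizontal axis and at 8.28 on the vertical axis, while the other 7 libraries lie between 3.77 and 4.17 and between 8.41 and 8.63.

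Few genes separated the genotypes. Pkp2 and Nts fell in BACHD striatum, and Msantd1, Lars2, Rn45s and Plxnb3 rose. These 6 genes were 0.0378% of the 15861 genes tested (edgeR quasi-likelihood test, adjusted p under 0.05), and the BACHD and WT libraries did not overlap for any of them. A further view of the background is the unadjusted test, in which 833 genes, 5.25%, had p under 0.05. All 4 BACHD libraries were above all 4 WT libraries for 247 genes (1.56%) and below all of them for 264 genes (1.66%). The median log2 change over all genes was 0.00, and 48.5% of genes had a positive one. The median standard error of a log2 change was 0.0826, and the smallest change that passed was 0.52. DESeq2 called 35 of 14080 genes (0.249%), among them all 6.

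**Figure D2:**
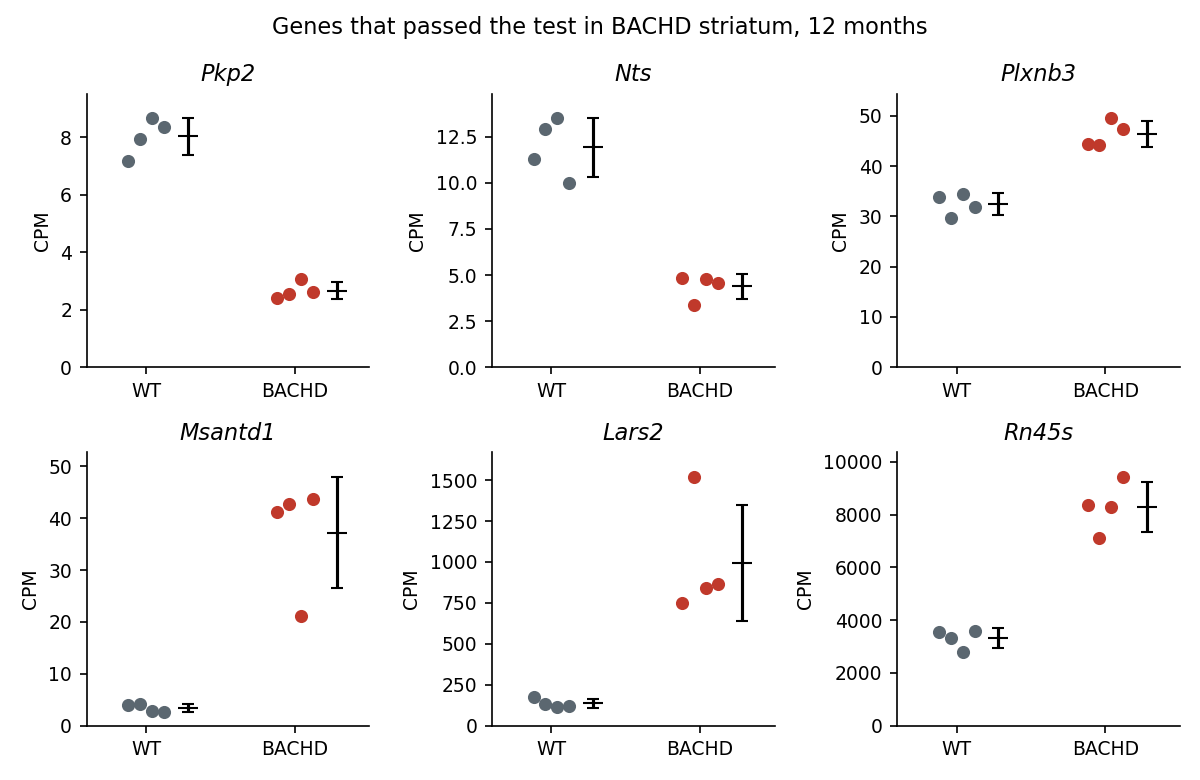
CPM of the 6 genes that passed the test, 1 point per library (WT grey, BACHD red, 4 each), with the mean and SD beside each group. For every gene the 2 groups are apart, and the spread among BACHD libraries is wide for Lars2, from 747 to 1520 CPM, and for Msantd1, from 21.2 to 43.7 CPM.

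Pkp2 encodes plakophilin 2, a protein of desmosomes, the junctions that hold neighbouring cells together. It lies on chromosome 16 at 16213318 to 16272712 on the plus strand (GRCm38, GENCODE M21). It was at 7.17, 7.92, 8.65 and 8.36 CPM in the WT libraries and at 2.41, 2.55, 3.07 and 2.63 CPM in the BACHD libraries. The highest BACHD library was well under the lowest WT library. The means were 8.02 ± 0.644 and 2.66 ± 0.285 CPM (SD, n = 4 each), a 3.01-fold lower level (log2 change -1.59, SE 0.09, edgeR adjusted p = 3.1e-04). Dropping any single library left the call in place, with log2 changes from -1.64 to -1.55 over 8 such fits. Females and males gave nearly the same value, -1.61 and -1.58.

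Nts encodes the precursor of neurotensin and neuromedin N, peptides that act on dopamine signalling in the striatum. The gene lies on chromosome 10 at 102481756 to 102490486 on the minus strand. WT libraries held 11.3, 12.9, 13.5 and 9.98 CPM of it, and BACHD libraries 4.86, 3.4, 4.78 and 4.56 CPM. The groups did not overlap, at 11.9 ± 1.59 and 4.4 ± 0.679 CPM, a 2.71-fold lower level (log2 change -1.44, SE 0.14, edgeR adjusted p = 0.0057). Without BACHD replicate 4 the adjusted p was 0.051 at nearly the same change, -1.45. The call held in the other 7 fits without 1 library.

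Nts was 1 of 18 neuropeptide genes tested from a list of 23, and no other passed. Of the 18, 8 had positive and 10 negative changes, with a median of -0.09 beside 0.00 for all genes. That median was 0.00 without WT replicate 4 and 0.01 without BACHD replicate 3. Pdyn, the precursor of the dynorphins of direct pathway neurons, was at 42.2, 47.2, 42.6 and 33.0 CPM in WT and at 60.1, 55.5, 53.7 and 58.3 CPM in BACHD libraries. All BACHD values were above all WT values, yet the change of 0.47 (SE 0.09) had an edgeR adjusted p of 0.29, and DESeq2 gave 0.0012. Oprk1 encodes the kappa opioid receptor, on which dynorphins act. It was at 47.9, 36.8, 42.3 and 34.2 CPM in WT and at 25.3, 21.5, 25.8 and 23.5 CPM in BACHD libraries, with all BACHD values below all WT values. Its log2 change was -0.75 (SE 0.11, edgeR adjusted p = 0.11), and it passed without WT replicate 4 (-0.82, adjusted p = 0.0073) and in DESeq2 (9.9e-08). The precursor was thus the higher of the pair and the receptor the lower in BACHD, and neither passed the main test. Penk, the enkephalin precursor of indirect pathway neurons, was at 1200 ± 245 CPM in WT and 1120 ± 129 CPM in BACHD (log2 change -0.10, SE 0.15, adjusted p = 0.96).

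Plxnb3 encodes plexin B3, a semaphorin receptor found mainly on oligodendrocytes. It lies on chromosome X at 73757090 to 73772514 on the plus strand. WT libraries gave 33.8, 29.7, 34.4 and 31.8 CPM and BACHD libraries 44.4, 44.3, 49.5 and 47.4 CPM. The means of 32.4 ± 2.11 and 46.4 ± 2.49 CPM were apart, a 1.43-fold higher level (log2 change 0.52, SE 0.06, edgeR adjusted p = 0.016). The change ran only from 0.49 to 0.56 in the fits without 1 library, but the call was lost in 5 of the 8, those without WT replicate 2 or any 1 of the BACHD libraries (adjusted p from 0.092 to 0.11). None of the 21 genes tested from the oligodendrocyte list passed. In that list 14 changes were positive and 7 negative, with a median of 0.11, and of 0.05 without WT replicate 4. Mog, a myelin surface protein, was at 72.6 ± 7.58 CPM in WT and 85.8 ± 7.57 CPM in BACHD (log2 change 0.24, SE 0.09, adjusted p = 0.93).

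Lars2 encodes the leucyl-tRNA synthetase of mitochondria, which charges mitochondrial tRNA with leucine. The gene lies on chromosome 9 at 123366927 to 123462666 on the plus strand. It was at 178, 134, 116 and 122 CPM in the WT libraries and at 747, 1520, 840 and 863 CPM in the BACHD libraries. Every BACHD library was above every WT library, and BACHD replicate 2 was far above the other 3. The rise was 7.21-fold (137 ± 27.7 against 992 ± 355 CPM, log2 change 2.85, SE 0.20, edgeR adjusted p = 5.3e-04). It held in all 8 fits without 1 library, with values from 2.62 to 3.03. None of the other 16 mitochondrial tRNA synthetases tested passed, and their log2 changes ran from -0.12 to 0.12.

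Rn45s, the precursor of ribosomal RNA, was at 3550, 3330, 2780 and 3590 CPM in WT and at 8370, 7120, 8270 and 9430 CPM in BACHD striatum. No BACHD value reached down to the WT range. The rise was 2.5-fold (3310 ± 370 against 8300 ± 945 CPM, log2 change 1.32, SE 0.11, edgeR adjusted p = 0.0028). Ribosomal RNA makes up most of the RNA of a cell and is usually kept out of such libraries. The gene was not placed in GENCODE M21, so no coordinates are given.

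In the cortex of the same mice, Lars2 and Rn45s were high together in libraries of both genotypes. Lars2 was at 1420 CPM in the cortex of WT replicate 1, at 980 CPM in that of BACHD replicate 3 and at 288 CPM in that of BACHD replicate 4, and between 89.7 and 134 CPM in the other 5. The 2 cortical libraries with the highest Lars2 also had the highest Rn45s, 8680 and 8530 CPM, while the others held 2880 to 5200 CPM. In cortex the log2 change was -0.04 for Lars2 (SE 1.42) and 0.15 for Rn45s (SE 0.32), and neither passed (edgeR adjusted p = 1.0 and 0.97). When all 16 libraries of the cohort shared 1 estimate of the spread, the striatal calls were lost for Lars2 (adjusted p = 0.46) and Rn45s (0.13) at unchanged log2 values. The part of ribosomal RNA level in the Lars2 result was not tested.

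**Figure D3:**
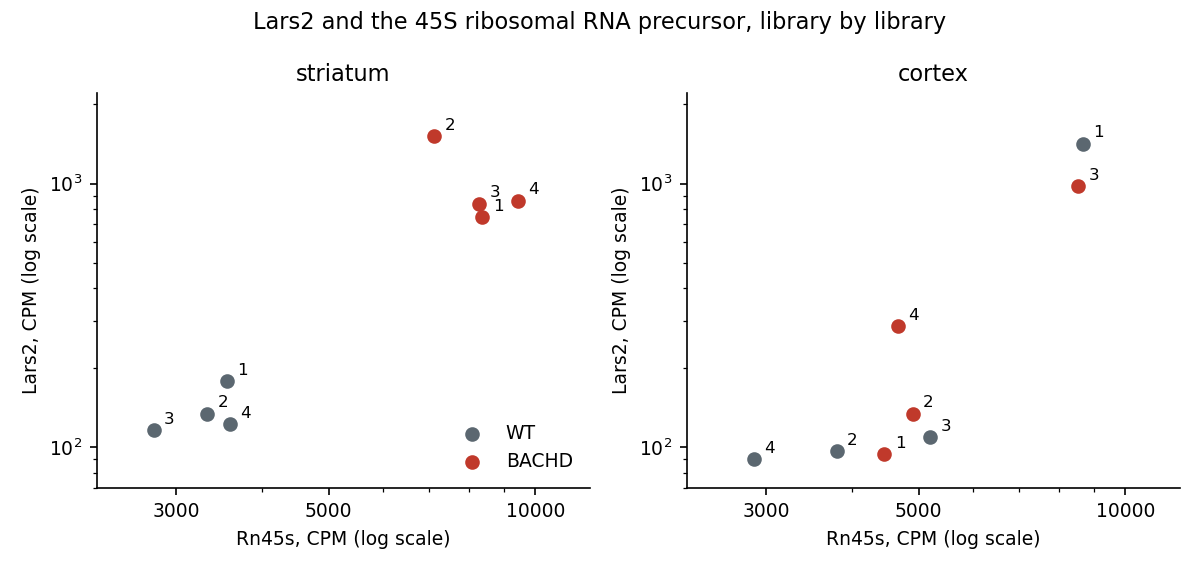
Lars2 against Rn45s in CPM, both on log axes, in striatum (left) and cortex (right), 1 point per library with its replicate number. In striatum the 4 BACHD libraries form the upper right group, and in cortex WT replicate 1 and BACHD replicate 3 are high for both genes, at 8680 and 8530 CPM of Rn45s.

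Msantd1, a gene just downstream of Htt, lies on chromosome 5 at 34908012 to 34923839 on the plus strand, and its annotated start overlaps the end of Htt (34761740 to 34912534, same strand). Reads in that overlap cannot be given to 1 gene by position. Msantd1 was at 4.02, 4.12, 2.8 and 2.73 CPM in WT and at 41.2, 42.8, 21.2 and 43.7 CPM in BACHD libraries. The rise was 10.9-fold (log2 change 3.45, SE 0.22, edgeR adjusted p = 3.6e-04), and BACHD replicate 3 was the lowest of its group. Htt itself was at 264, 255, 276 and 282 CPM in WT and at 344, 387, 310 and 356 CPM in BACHD libraries. All BACHD libraries were above all WT libraries, but the log2 change of 0.37 (SE 0.07) did not pass in edgeR (adjusted p = 0.29), whereas DESeq2 gave 8.9e-04. Reads were counted on the mouse genome, so how many transgene reads were counted as Htt or as Msantd1 is not known. The other 13 genes tested around Htt had log2 changes from -0.05 to 0.12, and none passed. An exact two-sided permutation test over the 70 ways to divide the libraries gave its smallest possible p, 0.0286, for both Htt and Msantd1, and 0.214 for each after adjustment over the 15 genes tested at the locus. With that smallest p, Htt and Msantd1 alone could not have passed after adjustment, so 0.214 does not speak against either rise.

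The genes next in order of p had non-overlapping or nearly non-overlapping groups without passing the test. Gnb4, a beta subunit of heterotrimeric G proteins, was at 59.1, 52.8, 48.7 and 50.3 CPM in WT and at 37.5, 34.4, 38.9 and 37.8 CPM in BACHD (log2 change -0.50, SE 0.07, edgeR adjusted p = 0.090). Htr2a, the serotonin 2A receptor, was at 37.2, 39.1, 40.7 and 42.5 CPM in WT and at 47.5, 48.9, 50.7 and 53.1 CPM in BACHD (0.33, SE 0.05, adjusted p = 0.090). For both genes the lowest value of the higher group was above the highest value of the other. Cdk19, a kinase of the Mediator complex that links transcription factors to RNA polymerase, was at 199 ± 17.9 and 146 ± 8.44 CPM (log2 change -0.45, SE 0.07, adjusted p = 0.14). Kcnip4, a subunit that modulates A-type potassium channels, was at 57.2 ± 2.85 and 44.7 ± 2.83 CPM (-0.36, SE 0.06, adjusted p = 0.18).

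Other genes of this rank were lower in BACHD, with log2 changes from -0.36 to -0.95. Actn2, an actin-binding protein of dendritic spines and a marker of projection neurons, was at 126, 115, 123 and 97.8 CPM in WT and at 62, 69.3, 90.6 and 58.1 CPM in BACHD, with no overlap (log2 change -0.72, SE 0.14, adjusted p = 0.29). Plk4, a kinase of centriole duplication, was at 12.9 ± 0.388 and 9.58 ± 0.784 CPM, with a change of -0.43 (SE 0.08, adjusted p = 0.27). Prkg2, a cGMP-dependent kinase, was at 13.7 ± 0.472 and 10.7 ± 0.52 CPM, with -0.36 (SE 0.07, adjusted p = 0.29). Odf4, a gene known from sperm tails and low here, was at 1.38 ± 0.155 and 0.714 ± 0.0857 CPM, with -0.95 (SE 0.15, adjusted p = 0.14). Cldn23, a tight junction claudin, had -0.64 (SE 0.12), and Zcwpw1, a histone methylation reader, had -0.43 (SE 0.08), each with an adjusted p of 0.29.

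On the higher side, Dll1, a Notch ligand, was at 11.2 ± 1.06 CPM in WT and 14.3 ± 1.34 CPM in BACHD (log2 change 0.36, SE 0.06, adjusted p = 0.28). Smoc1, a secreted calcium-binding matrix protein, was at 5.84 ± 0.79 and 7.99 ± 1.47 CPM (0.45, SE 0.08, adjusted p = 0.28), and its groups overlapped. Scd1, which makes monounsaturated fatty acids, was at 238 ± 23.3 and 310 ± 24.3 CPM (0.38, SE 0.07, adjusted p = 0.29). Of these genes, DESeq2 called Gnb4, Htr2a, Cdk19, Kcnip4, Actn2, Plk4, Prkg2, Cldn23, Dll1, Smoc1 and Scd1, and not Odf4 (adjusted p = 0.10) or Zcwpw1 (0.064).

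Among the 8 fits without 1 library, the one without WT replicate 4 gave the most calls. In this fit of 3 WT and 4 BACHD libraries 25 of 15908 genes passed (0.157%), 5 of them higher and 20 lower, and all 6 genes of the full comparison were among them. The genes named from it that were not described above were chosen after their values were seen. DESeq2 called 16 of the 25 with all 8 libraries kept. Galnt13, an enzyme that starts O-linked sugar chains on neuronal proteins, was at 280, 297 and 294 CPM in the first 3 WT libraries, at 202 CPM in WT replicate 4 and at 186, 177, 199 and 174 CPM in BACHD. Its log2 change went from -0.54 (SE 0.11, edgeR adjusted p = 0.41, DESeq2 0.0010) to -0.66 (SE 0.06, edgeR adjusted p = 6.4e-04). Gpr155, a membrane protein abundant in projection neurons, was at 283, 289 and 286 CPM in the first 3 WT libraries, at 222 CPM in the other and at 205 to 221 CPM in BACHD. The log2 change of Gpr155 went from -0.34 (SE 0.08, edgeR adjusted p = 0.68, DESeq2 0.063) to -0.43 (SE 0.04, edgeR adjusted p = 0.0027). The value of WT replicate 4 lay just above the BACHD range for both genes.

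Other genes that fell in that fit include the potassium channel Kcnk2 (-0.35, SE 0.05, adjusted p = 0.017), the neuropeptide Y receptor Npy2r (-0.68, SE 0.10, 0.031) and the neuropeptide-degrading protease Mme (-0.43, SE 0.04, 0.0027). The kainate receptor partner Neto2 fell as well (-0.33, SE 0.05, 0.039), as did the calcium-binding proteins Calb1 (-0.39, SE 0.06, 0.042) and Necab1 (-0.31, SE 0.05, 0.039), and the spine protein Ppp1r9a (-0.38, SE 0.06, 0.039). Lrrk2, a kinase mutated in familial Parkinson's disease, fell by 0.43 (SE 0.06, adjusted p = 0.039), and Actn2 by 0.81 (SE 0.12, 0.039). With all 8 libraries kept, the log2 changes were -0.26 for Kcnk2, -0.55 for Npy2r, -0.33 for Mme and -0.19 for Neto2. They were -0.32 for Calb1, -0.23 for Necab1, -0.29 for Ppp1r9a and -0.35 for Lrrk2. The edgeR adjusted p of these genes then ran from 0.68 to 0.94, and DESeq2 called Npy2r alone among them (0.049). In WT replicate 4 Neto2 was at 277 CPM, below the BACHD range of 312 to 354 CPM. Kcnk2, Npy2r, Mme, Calb1, Necab1 and Ppp1r9a lay inside the BACHD range in that library, and Lrrk2 and Actn2 above it. In the fit without that library, Cdk19 fell by 0.52 (SE 0.04, 6.5e-04) and Gnb4 by 0.52 (SE 0.07, 0.031), while Htr2a rose by 0.35 (SE 0.05, 0.035). With all 8 libraries kept and the cortical marker score added as a covariate, 29 genes passed, of which 23 were among the 25. That score was 5.25 in WT replicate 4 and 3.77 to 4.17 elsewhere, so the covariate mainly marks that library. The overlap is thus not a separate check on the 25 calls.

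Gene lists that define striatal cell types and pathways stayed close to the median of all genes, as the plot by list shows. Of 47 genes of projection neuron identity, 23 had positive and 24 negative changes, with a median of 0.00, and none passed. The members named below without a small p were picked as textbook markers. Without WT replicate 4, 32 were negative, the median was -0.09 and 1 gene, Actn2, passed. Ppp1r1b, which encodes the dopamine signalling protein DARPP-32, was at 1320 ± 174 CPM in WT and 1200 ± 96.9 CPM in BACHD (log2 change -0.14, SE 0.09). Pde10a, the main striatal phosphodiesterase, was at 2710 ± 356 and 2520 ± 220 CPM (-0.10, SE 0.11). Neither change passed (adjusted p = 0.94 and 0.95).

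Markers of the 2 projection neuron types had medians on either side of 0. Of 11 direct pathway genes, 8 were positive, with a median of 0.11, and of 0.04 without WT replicate 4. The dopamine receptor gene Drd1, listed under its older symbol Drd1a, was at 605 ± 83.6 and 597 ± 5.65 CPM (log2 change -0.02, SE 0.09, adjusted p = 0.99). Of 11 indirect pathway genes, 8 were negative, with a median of -0.04, and of -0.15 without WT replicate 4, when Necab1 passed. Adora2a was at 289 ± 45.4 and 259 ± 21.1 CPM (-0.15, SE 0.11, adjusted p = 0.94), and Drd2 at 124 ± 11.5 and 122 ± 14.6 CPM (-0.03, SE 0.09, adjusted p = 0.99). In WT replicate 4 Adora2a was at 221 CPM, below all 4 BACHD libraries, and in the other 3 WT libraries at 307 to 319 CPM, above all of them.

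**Figure D4:**
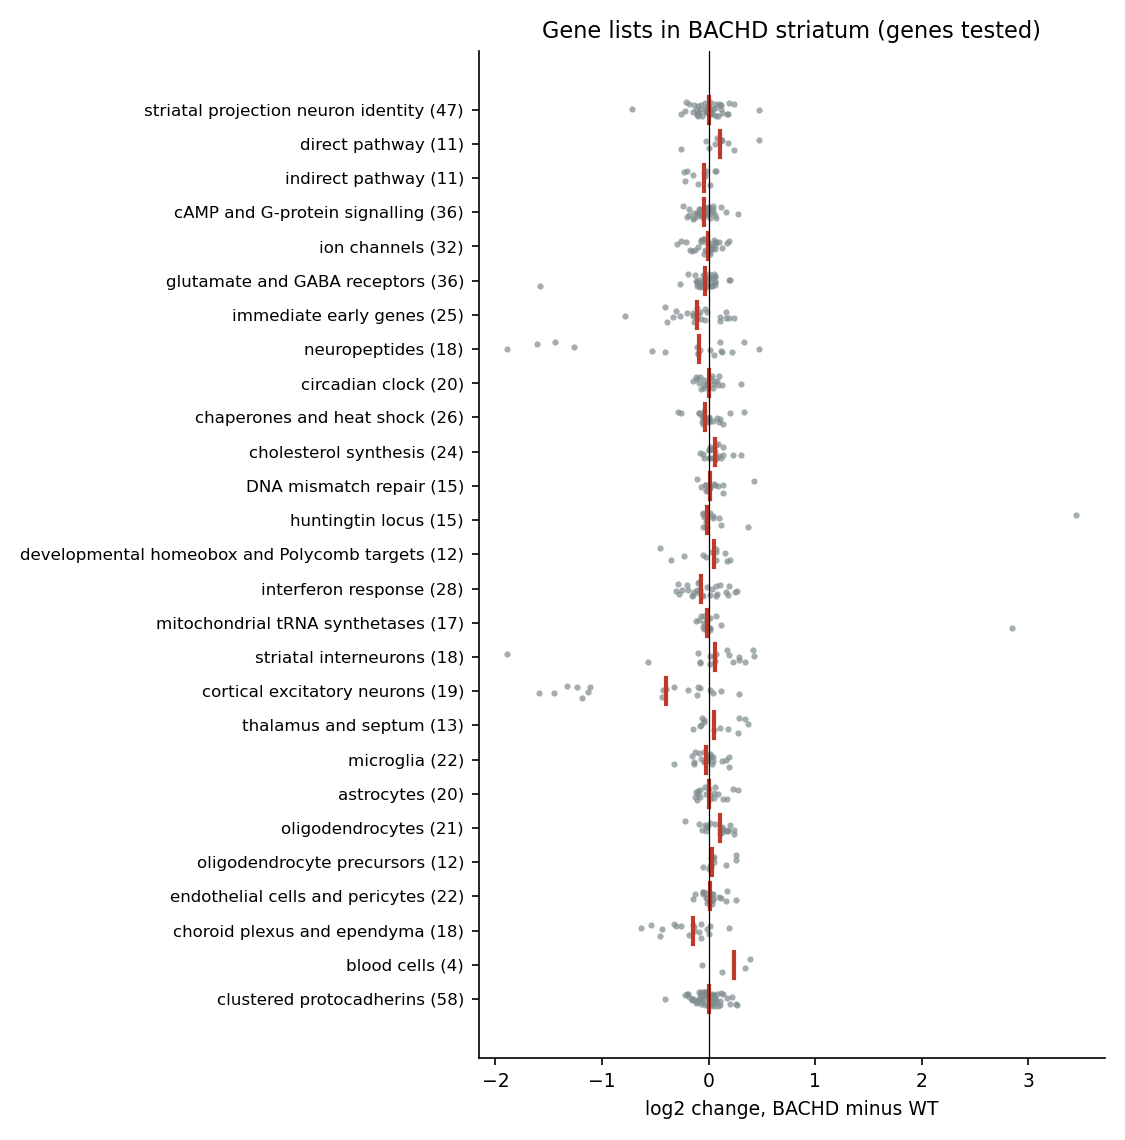
Log2 change between BACHD and WT striatum of each gene tested (points, spread vertically for legibility) in the gene lists, with the number tested in brackets and the list median as a red line. Most medians lie near 0, that of the cortical excitatory neuron markers lies at -0.40 (0.05 without WT replicate 4), and the points far to the right are Msantd1 at 3.45 and Lars2 at 2.85.

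Signalling lists showed no member that passed with all 8 libraries. In 36 genes of cAMP and G-protein signalling 13 were positive and 23 negative (median -0.04), in 32 ion channel genes 15 and 17 (-0.01), and in 36 glutamate and GABA receptor genes 14 and 22 (-0.03). The inositol trisphosphate receptor gene Itpr1, which releases calcium from internal stores, was at 3190, 3400, 3390 and 2930 CPM in WT and at 2720, 2800, 2880 and 2720 CPM in BACHD, with no overlap (log2 change -0.21, SE 0.07, adjusted p = 0.88). Cnr1, the cannabinoid receptor, is from the projection neuron list and was at 784 ± 95.8 and 652 ± 72.2 CPM (-0.26, SE 0.10, adjusted p = 0.93). Immediate early genes, which neurons switch on within minutes of activity, had 19 of 25 negative changes and a median of -0.11, of -0.01 without WT replicate 4 and of 0.01 without WT replicate 2.

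Of 19 cortical excitatory neuron markers 15 had negative changes, with a median of -0.40, but without WT replicate 4 it was 6 of 19 and the median was 0.05. Among lists for other cell types, 13 of 18 interneuron genes were positive, with a median of 0.07, of 0.01 without WT replicate 4 and of 0.20 without WT replicate 2. Ache, which breaks down acetylcholine, was at 48.4, 41.9, 45.3 and 46.1 CPM in WT and at 58.2, 50.7, 59.9 and 54.1 CPM in BACHD, with no overlap (log2 change 0.29, SE 0.07, adjusted p = 0.61). Chat, which makes acetylcholine and marks cholinergic interneurons, was at 31.8 ± 5.37 and 33.2 ± 1.15 CPM (0.06, SE 0.11, adjusted p = 0.96, and -0.05 without WT replicate 4). Gfap, the intermediate filament of astrocytes that rises in reactive gliosis, was at 90.1 ± 4.67 and 109 ± 12.3 CPM (0.28, SE 0.08, adjusted p = 0.76), and the medians of the 20 astrocyte genes (0.00) and the 22 microglial genes (-0.02) were near that of all genes. Choroid plexus and ependymal genes had 16 of 18 negative changes and a median of -0.15, and 13 of 18 and -0.10 without WT replicate 4. Ttr, the choroid plexus carrier of thyroid hormone, ran from 52 to 180 CPM in WT and from 20.4 to 112 CPM in BACHD libraries (-0.63, SE 0.28, adjusted p = 0.93).

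The remaining lists also had medians near 0, except that of the blood cell genes. Of 24 genes of cholesterol synthesis 18 were positive, with a median of 0.07, and of 0.00 without BACHD replicate 4. Srebf1, a regulator of lipid synthesis, was at 93.5, 82.2, 79 and 89.5 CPM in WT and at 96.4, 98, 110 and 100 CPM in BACHD, with no overlap (log2 change 0.23, SE 0.07, adjusted p = 0.81). The list for DNA mismatch repair, a pathway that acts on CAG repeats, also held other repair and replication genes such as Ogg1 and Pold1. Its 15 tested genes had a median of 0.01, and 26 chaperone genes one of -0.03. Medians were 0.00 for 20 circadian clock genes, -0.07 for 28 interferon response genes (-0.02 without WT replicate 4) and 0.00 for 58 clustered protocadherins. The 12 tested genes of a list of developmental regulators, with homeobox genes among them, had a median of 0.05 (-0.06 without BACHD replicate 3). Medians were 0.03 for 12 genes of oligodendrocyte precursors, 0.01 for 22 endothelial and pericyte genes, 0.05 for 13 thalamic and septal genes and 0.24 for the 4 blood cell genes tested. No member of these 11 lists passed.

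The genotype effect in striatum was then compared with that in cortex of the same mice. In cortex 1 gene of 15839 passed (0.00631%), Msantd1, with a log2 change of 3.33 (SE 0.24, adjusted p = 6.5e-04). The test of the difference between tissues called 2 genes of 16368 (0.0122%), Pkp2 and Rnf144b, both with a more negative effect in striatum. For Pkp2 the effects were -1.59 in striatum and -0.13 (SE 0.11) in cortex, where the gene was at 4 ± 0.525 CPM in WT and 3.68 ± 0.723 CPM in BACHD. The difference was -1.46 (SE 0.13, adjusted p = 2.8e-04), and with the animal as a block in this paired design it was -1.47 (SE 0.15, adjusted p = 0.045), the sole gene called in that fit. Rnf144b encodes a ubiquitin ligase. It was at 22.5 ± 2.84 CPM in WT and 18.5 ± 1.38 CPM in BACHD striatum, and at 47.8 ± 1.39 and 53.5 ± 1.54 CPM in cortex. Its difference of -0.45 (SE 0.06, adjusted p = 0.024) did not pass with the block (0.46). Without the striatal library of WT replicate 4 the count was 20 genes, all more negative in striatum. Among them were Cdk19 (-0.52, SE 0.05, adjusted p = 4.2e-04), Gnb4 (-0.62, SE 0.11, 0.049), Kcnip4 (-0.44, SE 0.08, 0.049) and Ogfrl1 (-0.45, SE 0.07, 0.024). That fit had no animal block, so it ignored the pairing of the tissues. No fit with the block left out a library.

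For the other genes called in striatum the tissue difference did not pass, with wide errors for Nts and Lars2. Nts was low in cortex, at 2.54 CPM in WT replicate 1 and from 0.135 to 0.552 CPM in the other 7 libraries, and the tissue difference was 0.69 (SE 0.78, adjusted p = 0.87). That cortical library of WT replicate 1 was also the highest for Penk (50.3 CPM, against 16.6 to 25.6) and Adora2a (5.29 CPM, against 1.24 to 2.29). It was not the highest for Cnr1 (283 CPM, against 254 to 296). No fit of the tissue difference left out a cortical library. Plxnb3 was at 17.5 ± 2.32 and 17.5 ± 0.859 CPM in WT and BACHD cortex, and the difference was 0.50 (SE 0.10, adjusted p = 0.37). For Lars2 it was 2.88 (SE 1.48, adjusted p = 0.72), and for Rn45s 1.17 (SE 0.40, adjusted p = 0.72). Msantd1 passed in both tissues. The test for a genotype effect that differs between females and males called no gene in edgeR, with 363 at an unadjusted p under 0.05, and none in DESeq2 or limma voom either, with 2 against 2 mice in each sex.

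The last comparison set BACHD striatum beside BAC-CAG striatum of the same age, each against its own WT littermates, with no library shared. In BAC-CAG mice, with 8 libraries per genotype, 64 of 18246 genes passed (0.351%). The median log2 change there was 0.55 for cortical excitatory neuron markers and -0.26 for projection neuron genes, beside -0.40 and 0.00 in BACHD. Of the 64 genes, 58 were tested in BACHD, and 50 of the 58 (86.2%) had the same direction there, beside 50.1% of the 14634 genes tested in both lines. Without WT replicate 4 it was 52 of 58, beside 54% of all genes. Those that fell in BAC-CAG mice had the same sign in 33 of 40 cases, and those that rose in 17 of 18. The changes were smaller in BACHD for 52 of the 58. Genes that fell had a median of -0.46 in BAC-CAG and -0.18 in BACHD, and genes that rose 0.57 and 0.34. These medians are of genes chosen for their change in BAC-CAG, so the larger size there is in part a result of that choice.

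Pkp2 and Msantd1 passed in both lines, which is 3.12% of the BAC-CAG calls and 33.3% of the BACHD calls. How many of the Msantd1 reads came from the transgene is not known in either line. In BAC-CAG mice Pkp2 fell from 6.8 ± 0.741 to 3.39 ± 0.54 CPM (SD over 8 mice), by -1.01 on the log2 scale (SE 0.10, adjusted p = 8.4e-05), beside -1.59 in BACHD. Cdk19 (-0.34 in BAC-CAG, -0.45 in BACHD), Actn2 (-0.62 and -0.72), Odf4 (-1.28 and -0.95), Phex (-1.13 and -0.82), Htr2a (0.61 and 0.33) and Smoc1 (0.59 and 0.45) passed in BAC-CAG mice and had the same sign in BACHD. Phex, a membrane protein of the peptidase family, was among the genes that passed in BACHD without WT replicate 4 (-0.96, SE 0.11, adjusted p = 0.0073). With all 8 libraries its edgeR adjusted p was 0.35.

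Penk was at -0.72 (SE 0.11, adjusted p = 0.0075) in BAC-CAG and at -0.10 (SE 0.15) in BACHD. The values were -0.42 and -0.09 for Pcp4, a calmodulin-binding protein abundant in striatum, and -0.62 and -0.21 for Il33, a cytokine of glial cells. They were -1.15 and -0.20 for Sec14l3, a lipid-binding protein, and -0.67 and -0.29 for Cd59a, an inhibitor of complement. None of these differences between lines passed (adjusted p = 0.81 for each), with 4 mice per genotype in the BACHD cohort.

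**Figure D5:**
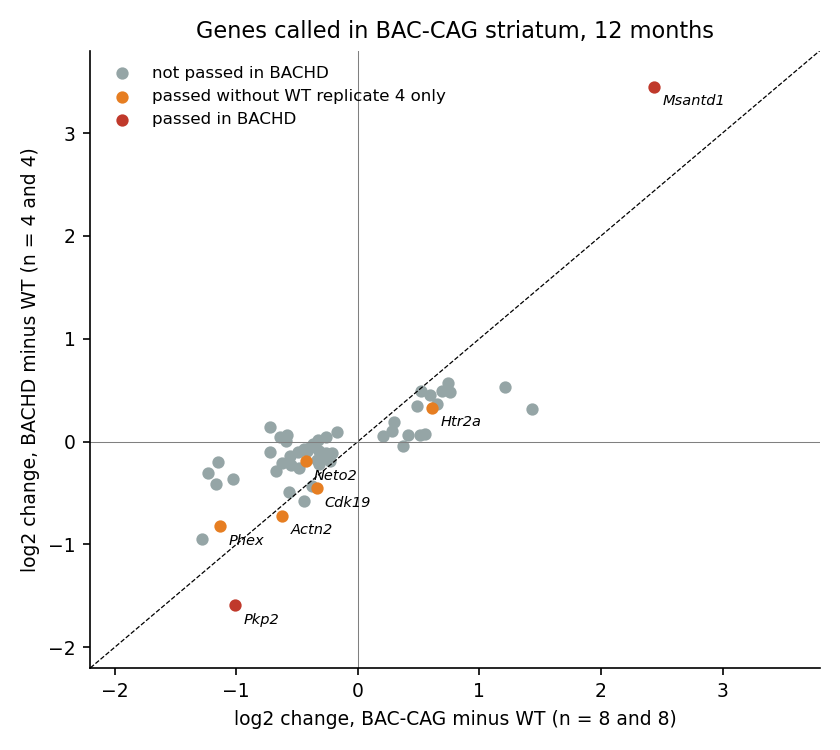
Log2 change in BACHD striatum (vertical, 4 mice per genotype) against that in BAC-CAG striatum (horizontal, 8 per genotype) for the 58 genes called in BAC-CAG mice at 12 months and tested in both, with equal change as a dashed line. Pkp2 and Msantd1 passed in both lines and lie beyond the line, while 52 of the 58 changes are smaller in BACHD.

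The test of the difference between lines called 1 of 15901 genes (0.00629%), Lars2, with a difference of 2.78 (SE 0.23, adjusted p = 5.2e-07). In BAC-CAG striatum Lars2 was at 350 ± 64.3 CPM in WT and 370 ± 66.3 CPM in transgenic mice, a change of 0.08 (SE 0.11, adjusted p = 0.84). Rn45s had no value in the BAC-CAG comparison, so Lars2 could not be set beside it there. Nts was at 8.67 ± 1.73 and 6.12 ± 2.64 CPM there (-0.52, SE 0.20, adjusted p = 0.30), and its difference between lines, -0.91 (SE 0.32), did not pass (0.81). Plxnb3 was at 63.4 ± 9.92 and 72.5 ± 11.3 CPM (0.19, SE 0.10, adjusted p = 0.45), with a difference of 0.33 (SE 0.16, 0.81). The 2 cohorts were counted into separate tables, so levels are not compared between them, only genotype effects within each.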

How the data were processed

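Per the labels' protocols, total RNA was made into stranded TruSeq libraries. The authors deposited whole-number read counts per gene symbol, 22981 symbols in the BACHD table, of which 2 repeat. Alignment with STAR and counting with HTSeq on GRCm38 (mm10) come from the submitters' processing notes, and versions and settings are not given in the sources used here. The test was the quasi-likelihood F-test of edgeR 4.0.16, run under R 4.3.3 (filterByExpr, TMM factors, sex as covariate, glmQLFit with legacy off, two-sided, Benjamini-Hochberg over all genes tested, threshold 0.05). Standard errors follow from the size of the log2 change and its F (change over root F). Alternatives used DESeq2 1.42.0, limma 3.58.1 (voom with quality weights) and sva 3.50.0. Scores use log2(CPM + 1).

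Interactions were fitted jointly, the tissue one also with the animal as replicate block. Same-animal deviations of striatum and cortex correlated at 0.283 (median, 0.116 to 0.436, 8 animals). For 4 of the 8 animals, the own cortex was the best correlated among the cortices of that genotype. For the line comparison 21462 symbols matched as written and 820 through older names. Coordinates are from GENCODE M21.

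Named genes were those called with at least 1 CPM and no provisional symbol, filled up to 20 by smallest p, the 5 smallest p of each list, the 6 of each interaction, the genes at the huntingtin locus, and the 12 of BAC-CAG striatum. Members and lists were chosen with earlier results of these data known. The statistics were tested on simulated counts.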

Additional observations from a re-analysis of the deposited data

Results flagged for a closer look

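With 104 groups of 4 libraries examined, 5 held a library far from the other 3, and chance alone gives about 1 in 20. Msantd1 was at 21.2 CPM in BACHD replicate 3 and between 41.2 and 43.7 CPM in the other BACHD libraries. The cortex of the same mouse was also the lowest of the BACHD group for Msantd1, at 8.53 CPM against 18.3 to 19.5 CPM. For Htt it was at 351 CPM against 443 to 450 CPM. Lars2 was at 1520 CPM in BACHD replicate 2 and between 747 and 863 CPM in the other 3. The remaining 3 concern WT replicate 4. Gpr155 was at 222 CPM there, against 283 to 289 CPM in the other WT libraries. The direct pathway score was 5.85 there, against 6.09 to 6.14, and the neuropeptide score 4.19, against 3.84 to 3.85.

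The genotype effect differed between striatum and cortex by an interaction test for Pkp2, by -1.46, and for Rnf144b, by -0.45. With the animal as a block Pkp2 alone passed (adjusted p = 0.045), and Rnf144b did not (0.46). The effect differed between BACHD and BAC-CAG striatum for Lars2, by 2.78. The striatal call of Lars2 in BACHD was lost when striatum and cortex were fitted together (edgeR adjusted p = 0.46).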

How the results depend on the processing

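Main counts were 6 genes called, 4 higher and 2 lower. DESeq2 gave 35 (16 higher, 19 lower), voom with quality weights 12 (7 lower), the first surrogate variable 36 (12 higher, 24 lower), all 16 libraries in one fit 15 (11 lower), and the cortical marker score, added after seeing the data, 29 (23 lower). Leaving out 1 library gave 4 to 25 calls, 3 to 5 higher and 1 to 20 lower, with the highest counts without WT replicate 4. Of the 6 genes, all passed in DESeq2, voom and the surrogate variable fit, and 3 in the 16-library fit, where Nts had an adjusted p of 0.056. Other scaling factors, the older quasi-likelihood method and no low-count filter kept 6 calls. For the striatum minus cortex difference, 2 main calls became 17 in DESeq2, 10 in voom and 1 without the low-count filter. The paired fit with the animal as replicate block gave 1. Fits without 1 striatal library had no block and gave 1 to 20. The difference between lines gave 1 to 2 calls without 1 library. No called gene changed sign under these settings. Without WT replicate 4 the sign turned for the cortical marker Neurod2 (-1.59 to 0.04), for Grm2 (-1.58 to 0.50) and for Chat (0.06 to -0.05), none of which passed. Libraries of a genotype differed by a chi-square per gene of 8.24 to 52.9, above the 1 that counting noise gives, so over all genes together counting error was the smaller part of the spread.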

Other observations

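Histone genes of cluster 1, chosen after their values were seen, had 39 of 45 negative changes in BACHD striatum, with a median of -0.23, and none passed. Their mean log2(CPM + 1) was 2.52, 2.65, 2.55 and 2.54 in the WT libraries and 2.40, 2.71, 2.17 and 2.33 in the BACHD libraries, so BACHD replicate 2 was the highest of all 8 and the other 3 were the lowest. The median was 0.08 in BACHD cortex and -0.16 in BAC-CAG striatum. These genes encode replication-dependent core and linker histones, and most of their mRNAs carry no poly(A) tail.

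Further values stand beside the cortical markers of WT replicate 4. Vip, a peptide of cortical interneurons, was at 17.6 CPM there and between 0.951 and 1.96 CPM in the other 7 libraries. Grm2, a glutamate receptor, was at 13.7 CPM there and between 0.751 and 1.5 CPM elsewhere.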
